A study of Arabidopsis thaliana with 29 samples.

Results

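Expression of 10 genes of embryo cytokinesis, mitotic kinase signalling and vesicle traffic was followed through embryo development: KNOLLE (AT1G08560), KEULE (AT1G12360), HINKEL (AT1G18370), SNAP33 (AT5G61210), PLEIADE (AT5G51600), TIO (AT1G50240), AUR1 (AT4G32830), AUR2 (AT2G25880), AUR3 (AT2G45490) and GNOM (AT1G13980). They were chosen by name, with earlier results of these data known. All 10 were present among the 33341 genes of the table of total reads. The second table, of parental contributions, lists 14681 genes and holds 7 of the 10; KEULE, AUR1 and AUR2 have no entry there. Embryos of Arabidopsis thaliana came from crosses made in both directions between Col-0 and Tsu-1, so all embryos were hybrids of the same pair of nuclear genomes and differed in which accession was the mother. They were sampled at 7 stages, from zygote and octant through globular, heart and torpedo embryos to bent and mature ones. Crosses are written mother first, as Col-0 × Tsu-1 or, with a Tsu-1 mother, Tsu-1 × Col-0. The comparison tissue was unfertilized ovules of Col-0, which carry no Tsu-1 genome. Each stage and cross had 2 libraries, except Col-0 × Tsu-1 zygotes with 1, and the ovules had 2, which gave 29 libraries in 15 groups.

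Embryos were dissected by hand and washed away from maternal tissue, and their RNA was amplified as antisense RNA before library preparation. The labels call the replicates biological but do not say how many embryos or mothers went into one, so p-values measure the spread between these samples. Library totals ranged from 689780 reads (Tsu-1 × Col-0 bent, replicate 2) to 60410492 reads (Col-0 × Tsu-1 zygotes, in which 3 technical libraries were joined), with a median of 10670170 reads. Each of the 13 embryo markers examined had reads in some library of every stage, except DRN at mature. At zygote, AT3G15170 and AT5G53950 had 45 and 71 reads with a Col-0 mother and 0 in each library with a Tsu-1 mother. Summed over 12 seed coat genes, counts scaled to library size (CPM) ran from 2782 to 4709 over zygote libraries, from 1764 to 2504 over octant libraries, from 309 to 528 at globular and from 42.5 to 147 at heart, against 89.8 to 122 in ovules. The 13 embryo markers all had reads in ovules too. Their summed level there, 408 to 717 CPM, overlapped that of zygote libraries, 562 to 1625 CPM. Neither detection nor the summed level of these markers thus sets embryo material apart from ovules. Taken singly, the markers differed. AT1G21970 had 22 and 92 reads in ovules and 17301, 15549 and 2674 in zygote libraries. AT4G21750 had 14785.5 and 774 reads in ovules and 16948, 15916 and 900 in zygote libraries, and AT5G53950 had 3157 and 376 in ovules. In bulk samples, fewer cells of a type and less RNA per cell cannot be told apart.

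A plant cell divides by building a new wall from the inside out. A microtubule array called the phragmoplast carries Golgi-derived vesicles to the division plane, where they fuse into a disc, the cell plate, which grows outward until it meets the parental wall. KNOLLE is the syntaxin of this fusion step, SNAP33 is its SNARE partner and KEULE is the Sec1/Munc18 protein that binds KNOLLE. HINKEL (a kinesin that acts with a MAP kinase cascade), PLEIADE (the microtubule bundler MAP65-3) and TIO (a FUSED-type kinase) organise the phragmoplast and its turnover. The Aurora kinases act on spindle and chromosomes, with AUR1 and AUR2 in one subgroup that also marks the forming cell plate and AUR3 in another at centromeres. GNOM is an ARF guanine nucleotide exchange factor of endosomal recycling; its loss disturbs the first division of the zygote. KNOLLE, KEULE and GNOM were identified through seedling pattern mutants.

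Many mitotic genes of plants carry, upstream of their start, MYB3R binding elements with the core AACGG. The 200 bases before the RefSeq start of each gene (assembly TAIR10.1) were searched for AACGG on both strands, that is AACGG or CCGTT. Of the 10 genes, 7, namely KNOLLE, HINKEL, SNAP33, PLEIADE, AUR1, AUR2 and GNOM, held it at least once, against 17.4% of the 27443 upstream windows of the same length. PLEIADE held 2 copies; 2.7% of windows held 2 or more. HINKEL alone matched the longer mitosis-specific activator consensus, found in 0.350% of windows; this match contains its AACGG core. A match is a description of the letters and not a binding site. The windows of 5 genes are printed, because these 5 genes fell together from torpedo to bent; the choice was made with that result known. KNOLLE, HINKEL, PLEIADE and AUR1 have a match, and AUR3 has none. Each runs 5′ to 3′ toward the gene start, with every AACGG or CCGTT in capitals. They lie at chr1:2711001-2711200 on the minus strand (KNOLLE), chr1:6324379-6324578 minus (HINKEL), chr5:20964538-20964737 minus (PLEIADE), chr4:15842243-15842442 plus (AUR1) and chr2:18749216-18749415 minus (AUR3).
KNOLLE: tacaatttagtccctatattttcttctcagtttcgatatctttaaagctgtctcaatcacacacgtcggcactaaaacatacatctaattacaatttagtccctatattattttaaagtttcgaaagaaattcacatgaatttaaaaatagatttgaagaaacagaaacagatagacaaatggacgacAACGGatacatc
HINKEL: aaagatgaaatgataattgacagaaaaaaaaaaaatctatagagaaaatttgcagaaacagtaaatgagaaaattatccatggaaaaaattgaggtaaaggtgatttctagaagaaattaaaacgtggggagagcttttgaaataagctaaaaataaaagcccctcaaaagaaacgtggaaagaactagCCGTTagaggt
PLEIADE: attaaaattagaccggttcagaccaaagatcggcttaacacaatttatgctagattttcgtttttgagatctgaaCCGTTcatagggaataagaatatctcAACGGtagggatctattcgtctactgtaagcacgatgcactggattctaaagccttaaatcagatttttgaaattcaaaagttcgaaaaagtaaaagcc
AUR1: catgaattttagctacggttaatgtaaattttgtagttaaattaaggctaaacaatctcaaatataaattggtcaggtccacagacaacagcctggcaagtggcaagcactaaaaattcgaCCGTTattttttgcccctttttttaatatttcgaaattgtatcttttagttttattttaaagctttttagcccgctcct
AUR3: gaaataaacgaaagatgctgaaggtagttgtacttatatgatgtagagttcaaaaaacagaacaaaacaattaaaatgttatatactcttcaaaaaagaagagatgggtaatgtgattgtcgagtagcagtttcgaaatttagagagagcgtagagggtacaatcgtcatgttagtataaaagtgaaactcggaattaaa
The copies in KNOLLE and HINKEL sit close to the start, with their first base at -12 and -11, that in AUR1 lies at -79, and those in PLEIADE at -99 and -125.

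The genes themselves lie, in TAIR10.1, at chr1:2709525-2711000 (KNOLLE, minus strand), chr1:4200864-4206486 (KEULE, plus), chr1:6319450-6324378 (HINKEL, minus), chr5:24623248-24625631 (SNAP33, plus), chr5:20960779-20964537 (PLEIADE, minus), chr1:18606511-18614500 (TIO, plus), chr4:15842443-15844865 (AUR1, plus), chr2:11034652-11038191 (AUR2, minus), chr2:18747509-18749215 (AUR3, minus) and chr1:4788463-4794654 (GNOM, plus). HINKEL, PLEIADE and GNOM share no exon base with another annotated gene. The other 7 share exon bases with a neighbour on the opposite strand, and the library kit named in the labels does not mark strand, so shared reads cannot be told apart. The overlap was 36.9% of the exon bases of AUR2, 33.5% of those of KNOLLE (with NPQ1) and 19.2% for AUR1 (with PFK6). It was 10.4% for AUR3 (with GRF9), 6.37% for TIO (with FTSH1) and 4.79% for KEULE (with PHR1). SNAP33 shared 2.58% of its exon bases with AT5G08990 and 3.38% with AT5G61220. AUR1 and AUR2 were 84.2% identical over aligned coding bases and shared no window of 50 identical bases; AUR3 was 65.4% and 65.6% identical to them.

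Levels are given as CPM, counts scaled to a library total of 1000000 reads and adjusted by TMM, in the order Col-0 × Tsu-1 replicates 1 and 2, then Tsu-1 × Col-0 replicates 1 and 2, with 1 and 2 libraries at zygote. They are not divided by gene length and are compared between libraries, not between genes. Stages of the embryo are ordered by their mean log2 CPM. Tests are edgeR quasi-likelihood tests with Benjamini-Hochberg adjustment over all genes tested, a gene being called at an adjusted p under 0.05, and each log2 fold change carries its standard error (SE).

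**Figure D1:**
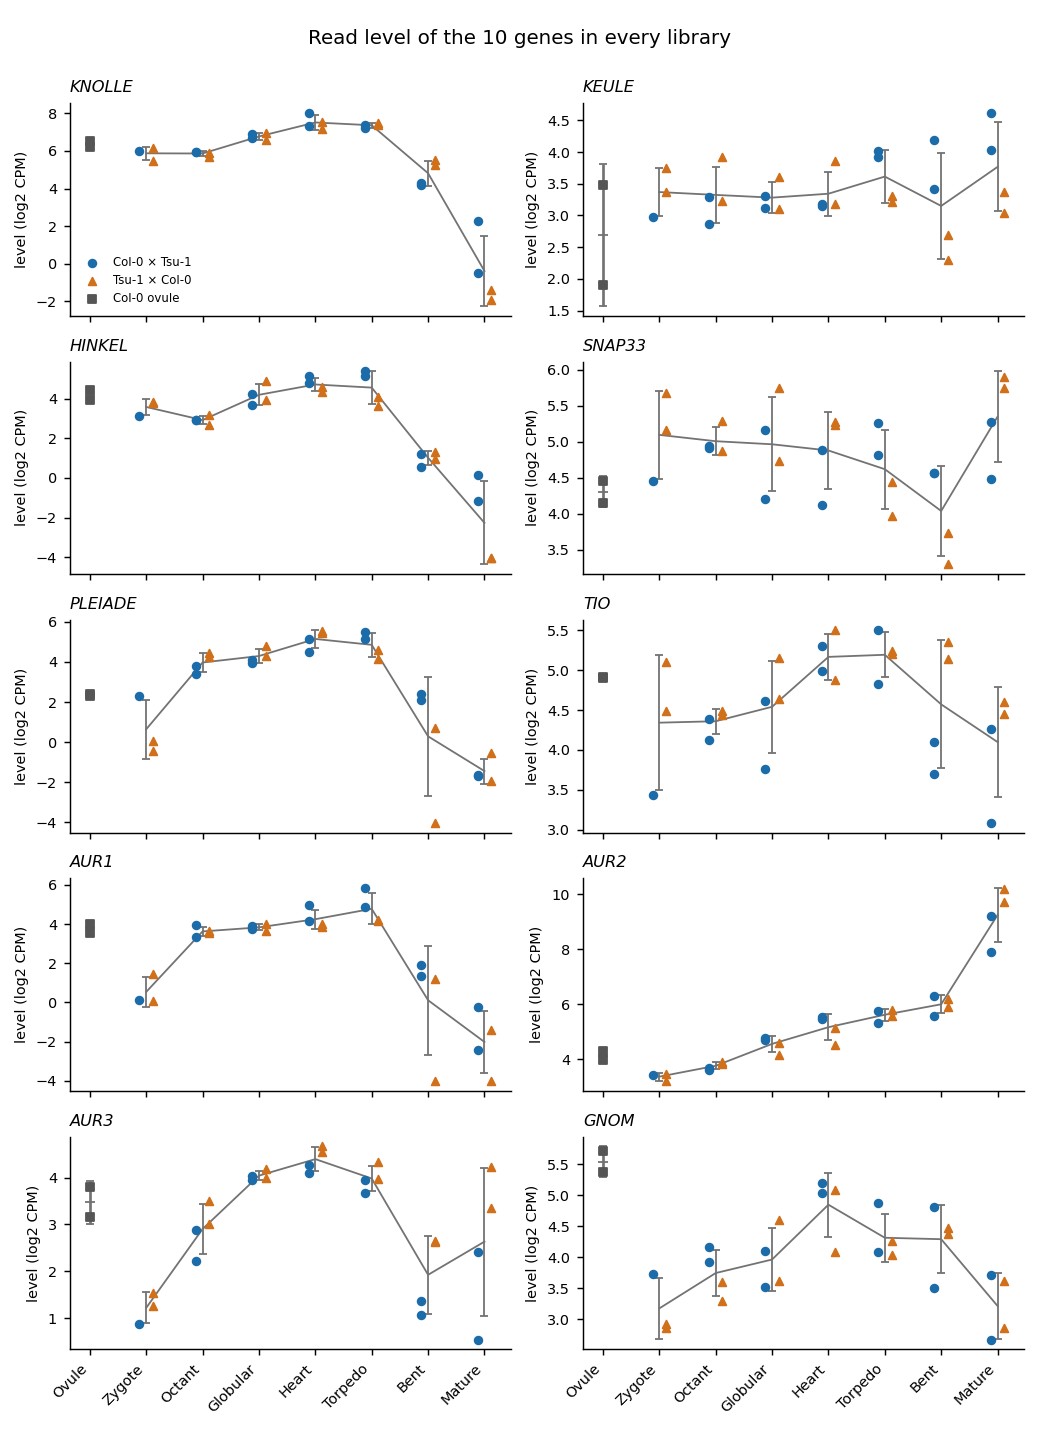
Level of each of the 10 genes on a log2 CPM axis (prior count 1; a library without reads sits near -4) against stage, with one point for each library, circles for Col-0 × Tsu-1, triangles for Tsu-1 × Col-0 and squares for ovules. Lines join the stage means and bars are 1 SD over the libraries of a stage; KNOLLE, HINKEL, PLEIADE, AUR1 and AUR3 are highest at heart or torpedo and drop at bent, while AUR2 climbs to mature.

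Among the vesicle fusion genes, KNOLLE had reads in every library. Its level was 64.9 CPM in the Col-0 × Tsu-1 zygotes and 70.3 and 44.3 in the Tsu-1 × Col-0 zygotes, and 62.0, 61.7, 58.8 and 51.2 at octant. Its libraries had 119, 102, 94.8 and 125 CPM at globular, 162, 262, 144 and 186 at heart, and 166, 148, 167 and 182 at torpedo. Bent embryos had 19.5, 18.2, 38.6 and 45.1 CPM, and mature embryos 0.63, 4.74, 0.20 and 0.32. Ordered by stage mean, heart and torpedo stood at the top with overlapping libraries, followed without overlap by globular, then by zygote and octant, which overlapped each other, then bent, then mature. The lowest zygote library, at 44.3 CPM, lay below the highest bent library, at 45.1. The 2 ovule libraries, at 74.7 and 93.2 CPM, lay above all zygote libraries, but the difference was not called. NPQ1, which shares exon bases with KNOLLE, ran from 33.6 to 64.7 CPM at zygote, 45.6 to 54.5 at octant, 71.5 to 99.3 at globular, 110 to 208 at heart, 75.7 to 149 at torpedo and 22.6 to 37.3 at bent. Its reads came to 86.1% to 89.2% of those of KNOLLE at octant, 75.4% to 85.7% at globular, 45.6% to 81.7% at torpedo and 83.6% to 126% at bent. Both genes were thus high at heart and low at bent, and how the reads divide between them was not tested.

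KEULE and SNAP33, the partners of KNOLLE, did not share this course. KEULE ranged from 4.88 to 18.2 CPM over bent libraries, the embryo stage with its lowest mean log2 CPM, and from 8.19 to 24.5 over mature libraries, the stage with its highest; each stage overlapped the next in the order of means. SNAP33, which also serves fusion at the plasma membrane outside division, showed the same overlap at each place of its order. Its highest stage was mature, with 38.5, 22.4, 59.3 and 53.4 CPM, and its lowest bent, with 23.6, 23.5, 13.2 and 9.76.

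Of the phragmoplast genes, HINKEL followed KNOLLE most closely of the other 9 genes, with a Pearson correlation of log2 CPM of 0.958 over the 29 libraries, which share stage, cross and depth. Its level was 8.72, 13.8 and 13.9 CPM at zygote and 7.55, 7.50, 8.90 and 6.25 at octant. It was 18.6, 12.7, 15.4 and 30.0 at globular, 27.3, 35.6, 20.3 and 23.6 at heart and 41.3, 34.8, 12.3 and 17 at torpedo. By bent it stood at 2.27, 1.40, 1.90 and 2.44 CPM, below every earlier library, and mature libraries held 3, 4, 0 and 0 reads.

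PLEIADE was low in zygotes and differed between them, with 4.96 CPM in Col-0 × Tsu-1 and 0.68 and 0.97 in Tsu-1 × Col-0. Octant libraries had 10.3, 14.0, 18.8 and 22 CPM, globular 15.5, 17.2, 19.9 and 27.7, heart 22.5, 34.9, 43.6 and 46.0, and torpedo 44.6, 35.9, 17.8 and 24.4. It then stood at 4.21, 5.18, 1.57 and 0 CPM at bent, where the library without a read was also the shallowest, and at 0.20 to 0.63 CPM at mature. No octant library overlapped a zygote library.

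TIO varied less between stages. Its stage means were highest at torpedo, with 45.5, 28.3, 36.7 and 37.7 CPM, and lowest at mature, with 19.2, 8.42, 21.8 and 24.1, and every stage overlapped its neighbour in that order.

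AUR1 had 1.03, 0.97 and 2.63 CPM at zygote and 10.2, 15.4, 12.5 and 11.6 at octant. It stayed in a like range at globular, at 15.1, 13.4, 12.7 and 15.8, and reached 30.8, 18, 14.5 and 16.0 at heart and 57.3, 29.6, 17.8 and 18.5 at torpedo. Bent libraries held 3.68, 2.52, 2.23 and 0 CPM, and mature ones 0.13, 0.79, 0 and 0.32, so zygote, bent and mature all lay below every library of the stages between.

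AUR3 started from 1.77, 2.33 and 2.83 CPM in zygotes. Octant libraries had 7.29, 4.61, 8.03 and 11.2 CPM, and globular libraries 15.4, 16.4, 15.8 and 18.1, without overlap between these 3 stages. It peaked at heart with 19.2, 17.1, 25.4 and 23.2 CPM, and had 15.4, 12.7, 20.1 and 15.5 at torpedo. At bent its libraries had 2.03, 2.52, 6.21 and 6.10 CPM, and at mature they spread from 1.40 to 18.8, with both Tsu-1 × Col-0 libraries (18.8 and 10.1) above both Col-0 × Tsu-1 libraries (1.40 and 5.26).

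AUR2 alone of the Aurora genes did not drop at bent as deposited. It had 10.7, 9.10 and 10.9 CPM at zygote and 12.2, 12.7, 14.8 and 14.2 at octant. The level was 27.5, 25.9, 17.7 and 23.7 at globular, 44.4, 46.3, 22.6 and 34.9 at heart and 54.0, 40.1, 47.5 and 55.4 at torpedo. Bent libraries had 79.2, 47.3, 59.8 and 73.2 CPM and mature libraries 587, 237, 834 and 1151. The late values belong to a locus with 2 genes, however. AT2G25890, annotated by RefSeq as an oleosin family protein, an oil-body coat of seeds, has all of its 877 exon bases inside exons of AUR2 on the opposite strand. Its own deposited reads came close to those of AUR2 at mature: AUR2 had 4618.5, 900, 4178 and 7294.5 reads there, and AT2G25890 had 4450.5, 843, 4122 and 7222.5. In 29 of 29 libraries AUR2 had at least as many reads as AT2G25890.

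Subtracting the reads of AT2G25890 from those of AUR2, an alternative chosen after these values were seen, left 38.6 to 50.7 CPM at torpedo, 11.4 to 19.8 at bent and 11.2 to 21.3 at mature. What was left at zygote was 7.49 to 10.9 CPM, at octant 12.1 to 14.5, at globular 16.9 to 26.6 and at heart 20.9 to 45.2. With this removal the bent and mature libraries lay below every torpedo library. If some reads of that stretch came from AUR2 itself, the subtraction takes away too many.

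**Figure D2:**
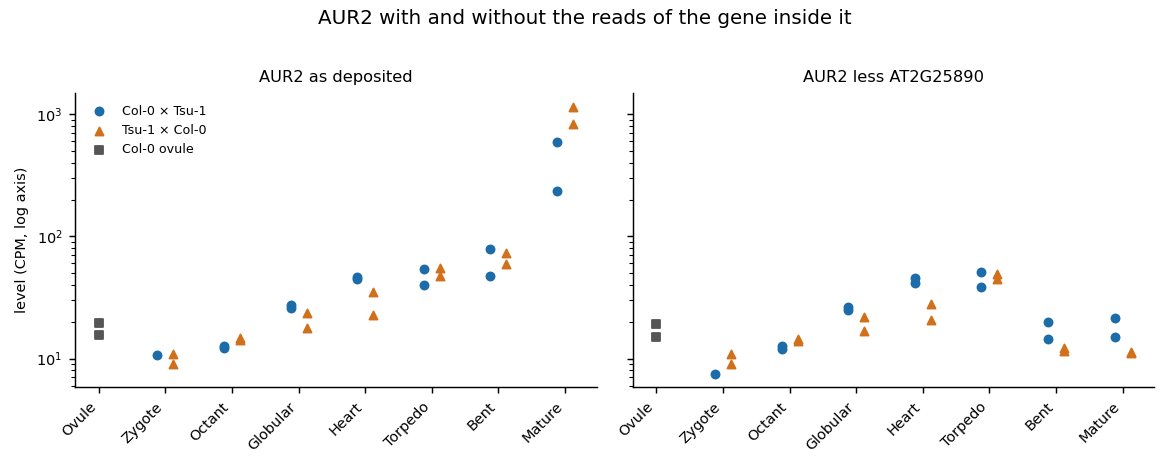
Level of AUR2 in each library (CPM, log axis) by stage, as deposited on the left and after subtraction of the reads of AT2G25890, whose exons lie inside AUR2, on the right; circles are Col-0 × Tsu-1, triangles Tsu-1 × Col-0 and squares ovules. As deposited the mature libraries reach 237 to 1151 CPM, and after subtraction they lie between 11.2 and 21.3 CPM.

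GNOM was highest in ovules, at 41.2 and 52.5 CPM, above every embryo library. Zygotes had 13.3 CPM in Col-0 × Tsu-1 and 7.53 and 7.21 in Tsu-1 × Col-0, octant embryos 15.1, 17.8, 12 and 9.79, and globular embryos 17.2, 11.4, 12.2 and 24.3. The highest embryo stage was heart, at 32.6, 36.6, 16.9 and 33.8 CPM. Torpedo had 29.2, 16.9, 16.3 and 19.2, bent 27.9, 11.3, 22 and 20.7, and mature 13.1, 6.32, 7.19 and 12.2, with overlap between each pair of neighbours in the order of stage means.

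The step from zygote to octant covers the first divisions of the embryo. PLEIADE, AUR1 and AUR3 rose there, 3 of the 10 genes, where 16.8% of the 19736 genes tested were called higher, and none of the 10 fell. AUR1 rose 8.51-fold (log2 3.09, SE 0.49, adjusted p = 0.00509), PLEIADE 8.1-fold (log2 3.02, SE 0.74, adjusted p = 0.0189) and AUR3 3.53-fold (log2 1.82, SE 0.35, adjusted p = 0.00833, edgeR). Zygote and octant libraries did not overlap for any of the 3. PFK6, whose exons overlap those of AUR1, also lay higher at octant (1.61 to 2.68 CPM at zygote, 6.91 to 14.5 at octant). So did GRF9, which overlaps AUR3 (1.82 to 2.39 CPM at zygote, 4.05 to 14.1 at octant). How the reads divide within these pairs was not tested. PLEIADE lost its call without Tsu-1 × Col-0 zygote replicate 1 (adjusted p = 0.0660) or replicate 2 (adjusted p = 0.0790). KNOLLE, KEULE, SNAP33 and TIO had log2 changes near 0 and were not called. Seed coat genes moved in the opposite direction over this step (2782 to 4709 CPM summed at zygote, 1764 to 2504 at octant), and their part in these changes was not tested.

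From octant to globular, 4 of the 10 genes rose and none fell, against 16.9% of 19070 genes called higher. HINKEL rose 2.47-fold (log2 1.30, SE 0.28, adjusted p = 0.00377), AUR3 2.2-fold (log2 1.14, SE 0.25, adjusted p = 0.00437), KNOLLE 1.91-fold (log2 0.93, SE 0.21, adjusted p = 0.00551) and AUR2 1.77-fold (log2 0.82, SE 0.21, adjusted p = 0.0109, edgeR), each without overlap of libraries. NPQ1, the neighbour of KNOLLE, also lay higher at globular, without overlap of libraries, and so did GRF9, the neighbour of AUR3 (4.05 to 14.1 CPM at octant, 24.7 to 47.0 at globular). AUR2 missed the threshold without Col-0 × Tsu-1 octant replicate 1 (adjusted p = 0.0541) or replicate 2 (adjusted p = 0.0548), and was called with the reads of AT2G25890 removed (log2 0.77, SE 0.21, adjusted p = 0.0143). Thus AUR3 was called at both early steps, while AUR1 and PLEIADE were called at the first and KNOLLE and HINKEL at the second; whether the genes differ in their steps was not tested.

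From globular to heart edgeR called 0 of the 10 genes, where 16.3% of 18299 genes were called in either direction. In all 4 genes had an unadjusted p under 0.05, among them PLEIADE (log2 0.81, SE 0.26, adjusted p = 0.0543), KNOLLE (log2 0.71, SE 0.27, adjusted p = 0.109) and GNOM (log2 0.85, SE 0.34, adjusted p = 0.119), and DESeq2 called 1. From heart to torpedo edgeR again called 0 of 10, against 20.1% of 18239 genes, with 2 at an unadjusted p under 0.05, AUR3 (log2 -0.52, adjusted p = 0.0952) and GNOM (log2 -0.66, adjusted p = 0.110), and DESeq2 called 0.

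The step from torpedo to bent, when growth by division gives way to filling of the seed, held the largest common change. KNOLLE, HINKEL, PLEIADE, AUR1 and AUR3 fell, 5 of the 10 genes, and none rose as deposited, where 22.6% of 18258 genes were called lower and 22.1% higher. HINKEL fell 12.8-fold (log2 -3.68, SE 0.38, adjusted p = 9.06e-06), AUR1 11.5-fold (log2 -3.52, SE 0.36, adjusted p = 9.78e-06), PLEIADE 10.3-fold (log2 -3.36, SE 0.34, adjusted p = 8.43e-06), KNOLLE 5.5-fold (log2 -2.46, SE 0.31, adjusted p = 4.98e-05) and AUR3 4.11-fold (log2 -2.04, SE 0.32, adjusted p = 0.000282, edgeR). Every bent library lay below every torpedo library for these 5, and all 5 calls held without any one of the 8 libraries and under each other setting tried. The median log2 change over the 10 genes was -1.29, beside -0.03 over all genes tested. The overlapping NPQ1 also lay lower at bent than at torpedo in every library, and GRF9 did too (34.4 to 45.8 CPM at torpedo, 17.5 to 34.1 at bent). PFK6, which overlaps AUR1, had 14.9 to 29.9 CPM at torpedo and 4.89 to 20.3 at bent, with overlap. KEULE (log2 -0.29), SNAP33 (-0.47), TIO (-0.54) and GNOM (0.09) were not called. AUR2 gave 0.51 as deposited (adjusted p = 0.125) and fell 2.97-fold with AT2G25890 removed (log2 -1.57, SE 0.25, adjusted p = 0.000273). Storage protein and oleosin transcripts moved in the opposite direction, with 450 to 1208 CPM summed over 7 genes at torpedo and 47998 to 642456 at bent, and their share of each library was not tested as a part of these falls.

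**Figure D3:**
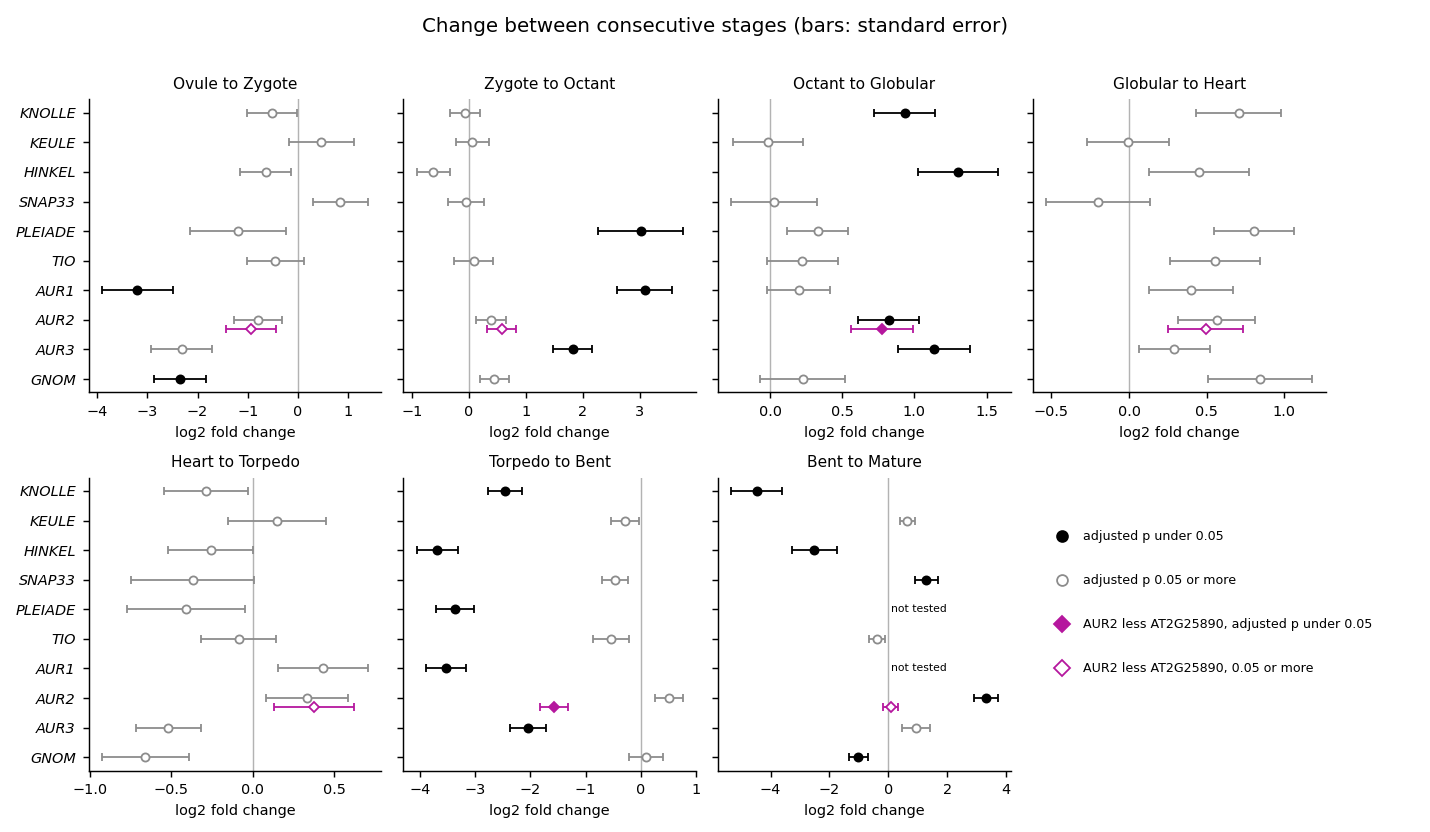
Log2 fold change between consecutive stages (x axis) for each gene (y axis), one panel for each step, with bars of 1 SE; filled circles have an adjusted p under 0.05 and diamonds give AUR2 after subtraction of the reads of AT2G25890. At torpedo to bent 5 genes sit between -3.68 and -2.04, and AUR2 moves from 0.51 to -1.57 with the subtraction.

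From bent to mature, PLEIADE and AUR1 had too few reads to be tested, and 5 of the other 8 genes were called, where 54.9% of 16974 genes were. KNOLLE fell 22.1-fold (log2 -4.47, SE 0.86, adjusted p = 0.00158), HINKEL 5.71-fold (log2 -2.51, SE 0.75, adjusted p = 0.0166) and GNOM 2.02-fold (log2 -1.02, SE 0.33, adjusted p = 0.0226, edgeR). SNAP33 rose 2.43-fold (log2 1.28, SE 0.39, adjusted p = 0.0173, edgeR), though the libraries of both stages overlapped, as they did for GNOM. AT5G61220, which overlaps SNAP33, had 8.48 to 17.1 CPM at bent and 15.4 to 25.6 at mature. The call of AUR2 (log2 3.31, SE 0.40, adjusted p = 0.000113) ended with AT2G25890 removed, at 0.07 (SE 0.24, adjusted p = 0.816). HINKEL was not called without Tsu-1 × Col-0 bent replicate 1 (adjusted p = 0.0869), Col-0 × Tsu-1 mature replicate 1 (0.0522) or Tsu-1 × Col-0 mature replicate 2 (0.0512). SNAP33 was not called without Tsu-1 × Col-0 bent replicate 1 (0.0652) or 2 (0.0619). GNOM was not called without Col-0 × Tsu-1 bent replicate 1 (0.105), Tsu-1 × Col-0 bent replicate 1 (0.0608) or 2 (0.0522), or Tsu-1 × Col-0 mature replicate 1 (0.0824). The fall of KNOLLE held without each library; its mature libraries had 4.5, 17.5, 1 and 1.5 reads, and the overlapping NPQ1 had 168.5, 138.5, 87 and 102.5.

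Between ovules and zygotes AUR1 and GNOM were lower in zygotes, 2 of the 10 genes, where 4.28% of 23297 genes were. AUR1 had 11.5 and 16.2 CPM in ovules and at most 2.63 in zygotes, 9.19-fold lower (log2 -3.20, SE 0.71, adjusted p = 0.0380), and GNOM was 5.08-fold lower (log2 -2.34, SE 0.52, adjusted p = 0.0374, edgeR). AUR3 had 8.82 and 13.8 CPM in ovules (log2 -2.32, SE 0.61, adjusted p = 0.0533). Neither call held when 1 library was left out, except the Col-0 × Tsu-1 zygotes: without Tsu-1 × Col-0 zygote replicate 1 or 2 the adjusted p was 0.0845 and 0.0599 for AUR1 and 0.0942 and 0.107 for GNOM, and without ovule replicate 1 or 2 it was 0.245 and 0.291 for AUR1 and 0.245 and 0.284 for GNOM. Ovules were Col-0 and zygotes were hybrid, and an ovule is mostly maternal tissue, so tissue, genotype and fertilization cannot be told apart here. PFK6, which overlaps AUR1, was also lower in zygotes (7.46 to 12.4 CPM in ovules, 1.61 to 2.68 in zygotes). So was GRF9, which overlaps AUR3 (10.8 to 17.7 CPM in ovules, 1.82 to 2.39 in zygotes). How the reads divide within these pairs was not tested. In simulated counts with 4-fold changes this comparison recovered 0% of 200 changed genes among 23297, so uncalled genes give no sign of an equal level.

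A list of 46 other genes of plant cytokinesis and the spindle gave the setting. From zygote to octant 10 of 44 tested rose and 0 fell, where 16.8% of all genes rose and 18.1% fell, with POK2, a kinesin that marks the division site (log2 4.0, from 0.17 to 0.62 CPM to 6.08 to 6.25), MAP65-4 (3.0) and EDE1, a microtubule-binding protein of the endosperm and embryo (2.30), the largest. From octant to globular 5 of 43 rose and 3 fell, where 16.9% of all genes rose and 20.2% fell. MAP65-2 rose (1.72), the phragmoplast kinesin PAKRP1L rose (1.05) and the plasma membrane syntaxin SYP121 fell (-1.10). From globular to heart SYP121 (-1.54) and the vesicle SNARE VAMP722 (-0.85) were the only 2 called, both lower, where 9.93% of all genes were lower. From heart to torpedo the MAP kinase kinase kinase ANP3 (1.28) and the cellulase KOR1 (0.76) were the only 2, both higher, where 10.1% of all genes were higher.

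At torpedo to bent 20 of 43 of these genes fell and 2 rose, where 22.6% of all genes fell and 22.1% rose. PAKRP1L fell most (log2 -3.88), followed by INCENP, the Aurora partner of the chromosomal passenger complex (-3.33), and POK2 (-3.22). The median over the 43 was -0.58. At bent to mature 13 of 38 fell and 6 rose, where 29.4% of all genes fell and 25.6% rose, with MAP65-2 (-5.32), MAP65-1 (-4.17) and the MAP kinase kinase MKK6 (-3.64) the largest. Between ovules and zygotes 1 of 46 was called, where 4.28% of all genes were lower in zygotes: RUK, a microtubule-associated kinase-like protein, lower in zygotes (-2.71).

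Among the 10556 genes of at least moderate level, those whose log2 CPM ran most like KNOLLE over the 29 libraries were AT5G17160 (Pearson r = 0.973), the cyclin CYCA1;1 (0.972) and AT4G02800 (0.971). For AUR1 they were AT2G34190 (0.951), the mitotic kinase gene CDKB2;2 (0.944) and AP2 (0.917). For GNOM they were AT3G12950 (0.835), SPDS1 (0.819) and TOR1 (0.809). Within the 10, PLEIADE and AUR1 had r = 0.933, KNOLLE and KEULE -0.22 and KNOLLE and SNAP33 -0.35.

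The reciprocal crosses ask whether the level of a gene depends on which accession is the mother, given as Tsu-1 × Col-0 minus Col-0 × Tsu-1. Only 1 library stands for Col-0 × Tsu-1 zygotes, so the SE and p of the zygote comparison take the spread of that cross from the other groups and do not show how it varies. At zygote 2 of the 10 genes were called, where 40.1% of 25157 genes were. PLEIADE was 6.19-fold lower in Tsu-1 × Col-0 (log2 -2.63, SE 0.46, adjusted p = 7.83e-05) and TIO 2.64-fold higher (log2 1.40, SE 0.49, adjusted p = 0.0243, edgeR). TIO had 10.8 CPM in Col-0 × Tsu-1 and 34.4 and 22.3 in Tsu-1 × Col-0, and its call ended without Tsu-1 × Col-0 replicate 1 (adjusted p = 0.126) and with zygote libraries alone (0.0979). The Col-0 × Tsu-1 zygote library held 673 CPM of storage transcripts against 39.6 and 52.4 in the other 2, whose part in this difference was not tested. FTSH1, whose exons overlap those of TIO, had 1319.5 reads in Col-0 × Tsu-1 and 1400 and 270.5 in Tsu-1 × Col-0, beside 654.5, 812 and 228.5 for TIO. The difference in PLEIADE rests on that 1 library, which could not be left out; it was called without either of the Tsu-1 × Col-0 libraries.

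At octant, globular and heart edgeR called 0 of the 10 genes between the crosses, where 3.55%, 0.787% and 7.61% of all genes were called; 1, 0 and 0 of the 10 had an unadjusted p under 0.05. PLEIADE was numerically higher in Tsu-1 × Col-0 at each of these 3 stages, opposite to zygote. Its change from zygote to octant itself differed between the crosses (interaction log2 3.41, SE 0.49, adjusted p = 0.00157, edgeR), as did 35.9% of 19736 genes, and this was the only one of the 10 called. The interaction rests on the single Col-0 × Tsu-1 zygote library (4.96 CPM against 0.68 and 0.97), which could not be left out, so its stability was not tested there; it was called without each of the other 6 libraries.

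At torpedo HINKEL was 2.6-fold lower in Tsu-1 × Col-0 (log2 -1.38, SE 0.36, adjusted p = 0.0131, edgeR), with 12.3 and 17 CPM against 41.3 and 34.8, the 1 gene of 10 called where 13.5% of all genes were. It was not called without Col-0 × Tsu-1 torpedo replicate 1 (adjusted p = 0.0672) or Tsu-1 × Col-0 torpedo replicate 1 (0.163). AUR1 and PLEIADE lay in the same direction without a call (log2 -1.26, adjusted p = 0.0573, and -0.93, adjusted p = 0.0679). The change of PLEIADE from heart to torpedo differed between the crosses (interaction log2 -1.64, SE 0.43, adjusted p = 0.0459), where 9.64% of genes did, but without any one of the 8 libraries the adjusted p was 0.0531 to 0.176.

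At bent 3 of 10 genes were called, where 15.6% of all genes were and the median log2 difference of all genes was -0.34. PLEIADE was 3.37-fold lower in Tsu-1 × Col-0 (log2 -1.75, SE 0.48, adjusted p = 0.0154), TIO 2.56-fold higher (log2 1.35, SE 0.40, adjusted p = 0.0218) and AUR3 2.76-fold higher (log2 1.46, SE 0.48, adjusted p = 0.0387, edgeR). PLEIADE was not called without Tsu-1 × Col-0 replicate 1 (adjusted p = 0.0974). TIO was not called without Col-0 × Tsu-1 replicate 1 (0.0647) or 2 (0.122) or Tsu-1 × Col-0 replicate 1 (0.185). AUR3 lost its call without each of the 4 libraries: the adjusted p was 0.205 and 0.0685 without the Col-0 × Tsu-1 replicates and 0.385 and 0.0656 without the Tsu-1 × Col-0 replicates. FTSH1 had 1537.5, 379, 1301.5 and 63 reads in the bent libraries, beside 351.5, 92, 491.5 and 29 for TIO. Summed storage transcripts spread from 47998 to 642456 CPM over these 4 libraries, and their part was not tested.

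At mature 4 of 10 genes were called, where 14.9% of all genes were. AUR3 was 4.74-fold higher in Tsu-1 × Col-0 (log2 2.24, SE 0.46, adjusted p = 0.00189), with 93.5 and 64 reads against 10.5 and 19.5; it was not called without Col-0 × Tsu-1 replicate 1 (adjusted p = 0.0704) or Tsu-1 × Col-0 replicate 1 (0.0502). Its overlapping neighbour GRF9 had 378.5 and 398 reads in Tsu-1 × Col-0 and 731.5 and 184.5 in Col-0 × Tsu-1. KNOLLE was lower in Tsu-1 × Col-0 (log2 -3.12, SE 0.83, adjusted p = 0.0117) on 1 and 1.5 reads against 4.5 and 17.5, and HINKEL (adjusted p = 0.0212, edgeR) on 0 and 0 reads against 3 and 4. HINKEL rests on counts at or near the floor of 3 reads, and so does KNOLLE except for Col-0 × Tsu-1 replicate 2, with 17.5 reads. Neither was called without Col-0 × Tsu-1 replicate 2, Tsu-1 × Col-0 replicate 1 or Tsu-1 × Col-0 replicate 2. AUR2 was 2.41-fold higher as deposited (log2 1.27, SE 0.40, adjusted p = 0.0323) and had the opposite sign with AT2G25890 removed (log2 -0.70, SE 0.32, adjusted p = 0.140). As deposited it was not called without Col-0 × Tsu-1 replicate 2 (0.281), Tsu-1 × Col-0 replicate 1 (0.0617) or replicate 2 (0.215).

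**Figure D4:**
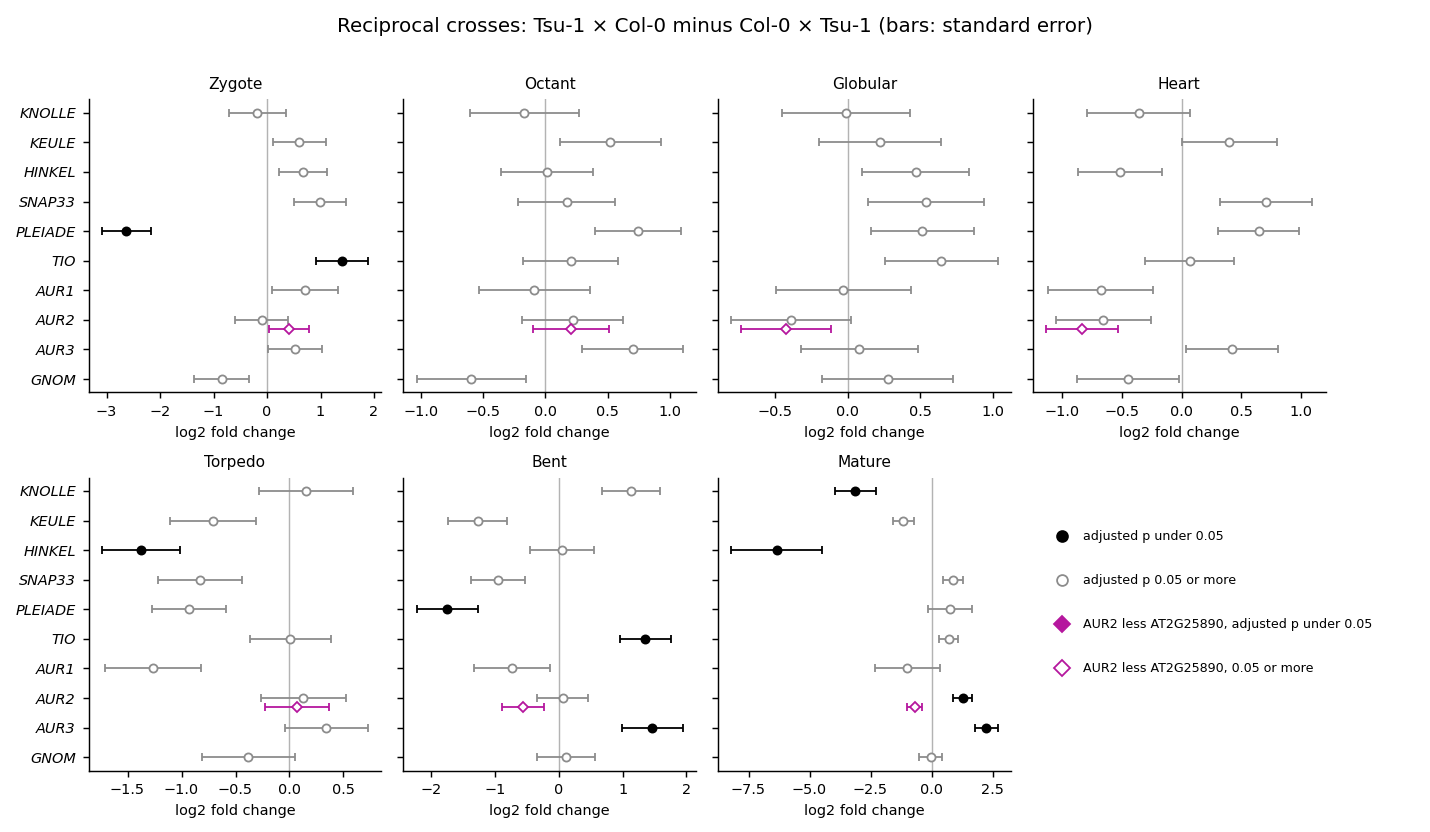
Log2 difference between the crosses (Tsu-1 × Col-0 minus Col-0 × Tsu-1, x axis) for each gene (y axis) in one panel for each stage, with bars of 1 SE; filled circles have an adjusted p under 0.05 and diamonds give AUR2 after subtraction of the reads of AT2G25890. No filled circle appears at octant, globular or heart, and PLEIADE lies at -2.63 at zygote.

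Reads over variants between Col-0 and Tsu-1 were used by the authors to estimate the maternal share of each gene, pooled over the libraries of a stage and cross and pulled toward 50%. A maternal call needed, in each of the crosses, 10 or more variant reads, more of them maternal, and an adjusted p under 0.05. At zygote SNAP33 and GNOM were maternal in both crosses, 2 of the 6 genes with enough reads, where 41.1% of 7547 genes were. In the authors' deposited table the maternal share of SNAP33 was 86.2% in Col-0 × Tsu-1 (363 reads, adjusted p = 0.00360) and 94.0% in Tsu-1 × Col-0 (772 reads, adjusted p = 5.41e-10). AT5G61220, whose exons overlap those of SNAP33, had 69.4% on 79 reads and 79.8% on 122 in the authors' deposited table. How the reads divide within this pair was not tested. GNOM was 86.3% maternal (658 reads, adjusted p = 0.00531) and 95.3% (230 reads, adjusted p = 7.21e-09) in the authors' deposited table.

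KNOLLE stood apart at zygote in its values, at 55.5% maternal in Col-0 × Tsu-1 (2634 reads, adjusted p = 0.659) and 42.3% in Tsu-1 × Col-0 (1185.5 reads, adjusted p = 0.343) in the authors' deposited table, whose median gene had 80.9% and 88.5%. Its neighbour NPQ1, which shares exon bases with KNOLLE, was at 59.4% and 47.7% on 966 and 843.5 variant reads in the same authors' deposited table. The Tsu-1 × Col-0 counts of both genes were not whole (1185.5 and 843.5), and how reads were divided between them was not tested. HINKEL was 51.5% maternal in Col-0 × Tsu-1 (268 reads, adjusted p = 0.983) but 86.3% in Tsu-1 × Col-0 (406 reads, adjusted p = 2.14e-07) in the authors' deposited table. AUR3 showed a wider gap in the authors' deposited table, 26.9% on 36 reads (adjusted p = 0.139) and 94.7% on 60 reads (adjusted p = 5.96e-07), and GRF9, which overlaps it, also had 94.7% on 60 reads in Tsu-1 × Col-0. TIO was 73.4% maternal (27 reads, adjusted p = 0.215) and 97.5% (30.5 reads, adjusted p = 3.08e-05) in the authors' deposited table. Its neighbour FTSH1 had 82.3% on 24 reads and 97.3% on 28.5 in the authors' deposited table. PLEIADE had 6 variant reads in each cross, too few to be read. Taken one cross at a time, 2 of 6 genes were called in Col-0 × Tsu-1, where 49.8% of genes were, and 5 of 6 in Tsu-1 × Col-0, where 74.0% were; the difference between the crosses was not tested.

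Seed coat transcripts, which are maternal by origin, were at 2782 to 4709 CPM in zygote libraries, and their part in the maternal shares of SNAP33 and GNOM was not tested.

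At octant 0 of the 7 genes were called in both crosses, where 26.9% of 8916 genes were. SNAP33 (83.6%, adjusted p = 0.000172), GNOM (83.9%, adjusted p = 0.000391) and TIO (96.3%, adjusted p = 3.03e-06) were maternal in Col-0 × Tsu-1 in the authors' deposited table, 3 of 7 where 57.5% of genes were. In Tsu-1 × Col-0 the same 3 had 70.1%, 70.9% and 74.6% in the authors' deposited table, and 0 of 7 passed (adjusted p of these 3 between 0.0680 and 0.0956), where 34.0% of genes did. TIO had 62 variant reads in Col-0 × Tsu-1 and 44 in Tsu-1 × Col-0. FTSH1, whose exons overlap those of TIO, had 96.5% on 65 and 74.1% on 43 in the authors' deposited table. How these reads divide between TIO and FTSH1 was not tested. From globular to mature 0 members passed in both crosses, where 1.9%, 0.219%, 0.169%, 0.0512% and 0% of genes did in turn. None passed in 1 cross alone either, where 1.01% to 7.89% of genes did.

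**Figure D5:**
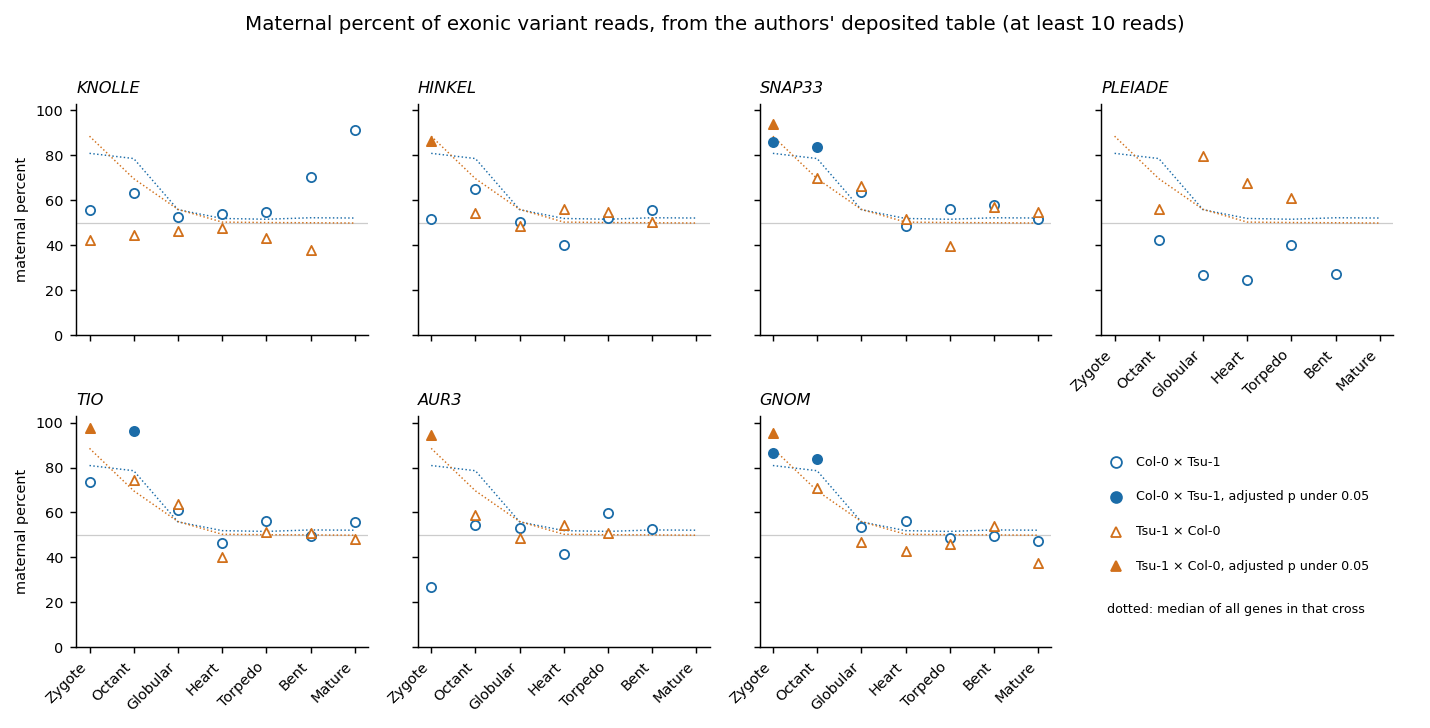
Maternal percent of exonic variant reads from the authors' deposited table (y axis) by stage (x axis) for 7 genes, with circles for Col-0 × Tsu-1 and triangles for Tsu-1 × Col-0, filled at an adjusted p under 0.05; values on fewer than 10 reads are left out, and dotted lines give the median of all genes in each cross. SNAP33 and GNOM start near that median at zygote, while KNOLLE starts at 55.5% and 42.3%.

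PLEIADE leaned toward the Tsu-1 allele and KNOLLE toward the Col-0 allele over several stages, without a call. For PLEIADE the Tsu-1 allele had the larger share in both crosses from octant to torpedo: in the authors' deposited table the maternal share was 42.4%, 26.9%, 24.5% and 40.1% in Col-0 × Tsu-1 and 56.3%, 79.7%, 67.6% and 61.1% in Tsu-1 × Col-0. The lowest adjusted p of PLEIADE at globular or later was 0.312 in the authors' deposited table. For KNOLLE the Col-0 allele had the larger share from zygote to bent. At octant it was 63.3% maternal in Col-0 × Tsu-1 and 44.6% in Tsu-1 × Col-0, and at bent 70.4% and 38.0%, in the authors' deposited table. NPQ1, whose exons overlap those of KNOLLE, leaned the same way, at 64.3% and 45.6% at octant and 64.6% and 42.2% at bent. How the variant reads divide between KNOLLE and NPQ1 was not tested. HINKEL, SNAP33, TIO, AUR3 and GNOM ranged from 37.4% to 66.4% maternal at globular and later in the authors' deposited table, over the values with at least 10 reads.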

How the data were processed

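RNA-seq of 27 embryo and 2 ovule libraries was used as deposited. Total reads per gene are expected counts deposited by the authors without normalization; 8.68% to 22.4% of the values of a library were not whole, and all were rounded to whole numbers before testing. Parental contributions are a fraction of maternal reads, an adjusted p-value and a count of variant reads for each stage and cross, deposited by the authors as values pooled over libraries, per the file headers; the test behind them is not given in the sources used here. The submitters' processing notes name STAR 2.7.0d, featureCounts 1.6.0, edgeR and the build TAIR10, with no role or order. Amplification of the RNA, per the labels' protocols, can add variation between libraries.

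Tests of counts used R 4.3.3 and edgeR 4.0.16 (TMM, filterByExpr, quasi-likelihood F tests, two-sided, Benjamini-Hochberg over all genes tested, threshold 0.05). Steps between stages used the libraries of both stages with cross as a covariate, ovules and zygotes were fitted on their own, and crosses were compared within stages in one model of the 29 libraries, giving 20 comparisons with the stage by cross interactions. Leaving out a library can leave 1 in an arm, whose spread is then taken from the other groups. The planned test of allele counts in each library was replaced by the pooled deposited values. Standard errors are the log2 fold change divided by the square root of F. Read intervals and the floor of 3 reads cover counting error only.

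Alternatives were DESeq2 1.42.0 (test and size factors), no filter, more or fewer libraries, a replicate block, leaving out each library, other minimums for the parental values and, chosen after the values were seen, AUR2 less the reads of AT2G25890. On simulated counts with 200 genes changed 4-fold, 92% were recovered from octant to globular (19070 genes), 87.5% from torpedo to bent (18258 genes), 44% between crosses at heart (25157 genes) and 26.5% for the interaction from octant to globular (19070 genes). The 10 genes and the lists were chosen with earlier results of these data known. All 10 are named; of the 46 other cytokinesis genes the 3 with the largest absolute change among those called at each step are named. Summed levels of the seed coat list and detection of the embryo list are given in the report; summed over 11 endosperm markers, levels were 37.8 to 44.7 CPM at zygote, 44.2 to 76.8 at octant and 26.6 to 52.8 at globular, with PHE1 and IKU2 at 0 in ovules. Sequences and positions are from RefSeq (TAIR10.1), read with Biopython 1.88; tables used Python 3.11.15, scipy 1.17.1, numpy 2.4.6 and pandas 2.3.3, and matplotlib 3.10.9 drew the figures.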

Additional observations from a re-analysis of the deposited data

Results flagged for a closer look

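The change of PLEIADE from zygote to octant differed between the crosses by 3.41 in log2 units (adjusted p = 0.00157 by edgeR, SE 0.49), and that from heart to torpedo by -1.64 (adjusted p = 0.0459 by edgeR, SE 0.43). Both are tests of the difference itself; the first depends on the only zygote library with a Col-0 mother, which could not be left out, so its call without each of the other 6 does not test that library, and the second lost its call without each of the 8, at 0.0531 to 0.176.

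Intronic variant reads, which entered no comparison, lay above the floor of 3 reads in 3 values: SNAP33 had 4 in Tsu-1 × Col-0 zygotes, and with a Col-0 mother PLEIADE had 4 at zygote and 4 at globular. These columns cover 4 of the 10 genes, no value exceeded 4 reads, and none reached the minimum of 10 reads set for a share.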

How the results depend on the processing

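Of the 31 calls of single genes, the values without 1 library kept the call in 142 of 193 cases, lost it in 51 and reversed in 0. Under the other alternatives 172 of 182 kept it, 9 lost it and 1 reversed. With AT2G25890 removed, the mature difference of AUR2 between crosses was -0.70 and its torpedo to bent change -1.57. The following are numbers of the 10 genes called. With the libraries of a stage alone, the crosses gave 1 at zygote (2 as reported), 2 at octant (0), 2 at torpedo (1), 1 at bent (3) and 1 at mature (4); torpedo also gave 2 with no filter, with DESeq2 and with the replicate block. One model of all 29 libraries gave 2 from globular to heart (0), 8 from bent to mature (5) and 4 from ovule to zygote (2). No filter gave 2 and DESeq2 1 from globular to heart. The heart to torpedo interaction (1) gave 2 with no filter, 2 with DESeq2 and 0 with the replicate block, and the bent to mature interaction (0) gave 1 with no filter and 1 with DESeq2. As reported, 8 of the 10 genes were tested from bent to mature. The share of all genes called under each setting, or without 1 library, is not set beside these numbers. They therefore do not show a shift particular to the 10 genes. The cause of these shifts was not tested.

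Without 1 library, the number called ran from 2 to 4 at zygote to octant, 3 to 4 at octant to globular, 0 to 2 at globular to heart, 0 to 1 at heart to torpedo, 5 to 5 at torpedo to bent, 2 to 7 at bent to mature and 0 to 4 at ovule to zygote. Between crosses it ran from 1 to 2 at zygote, 0 to 2 at torpedo, 0 to 2 at bent and 0 to 3 at mature, and stayed at 0 at octant, globular and heart. Interactions ran from 1 to 4 at zygote to octant, 0 to 1 at heart to torpedo and 0 to 2 at bent to mature, and stayed at 0 at the other steps.

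Same-numbered libraries did not in general deviate together: over 91 pairs the median correlation was -0.02, from -0.28 to 0.43, with 13 over 0.1. With the replicate block the ovule to zygote calls became 0 (AUR1 adjusted p = 0.0696, GNOM 0.0972, edgeR), and the numbers name libraries without pairing them. A minimum of 20 variant reads or an adjusted p under 0.01 left 2 genes maternal in both crosses at zygote and 0 at later stages, and intronic reads could not give a value. PLEIADE and AUR1 had too few reads to be tested from bent to mature, and 6 variant reads leave PLEIADE without a share at zygote.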
